A study of Mus musculus with 6 samples.

Results

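The potassium channel genes are the protein-coding genes of GENCODE M21 whose symbol begins with Kcn. All 94 of them were found by Ensembl gene ID in a count table of 49315 genes. The counts are RNA-seq reads from mouse medial ganglionic eminence (MGE), dissected at embryonic day 14. This part of the ventral forebrain gives rise to many cortical interneurons. Pools labelled KO were Nkx2.1-Cre; Prdm16fl/fl; Ai14, so they were homozygous for a floxed allele of the zinc finger gene Prdm16. Pools labelled WT were Nkx2.1-Cre; Prdm16+/+; Ai14. Both groups thus carried the Cre transgene, which acts in cells that express Nkx2-1 and in their progeny, and the Ai14 reporter. Each group held 3 libraries, and each library came from 1 pool of 3 embryos (6 eminences). Vessel cells, microglia and other cells outside the Nkx2-1 lineage were part of the dissected tissue, and Cre under this promoter is not expected to act in them.

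Potassium channels let potassium ions cross the membrane along their gradient and so set the resting potential, the shape of the action potential and the firing rate. Voltage-gated channels are built from pore-forming subunits of the Kcna, Kcnb, Kcnc, Kcnd, Kcnq and Kcnh families, and electrically silent modifier subunits and accessory subunits alter what these channels do. Inward rectifiers (Kcnj) and tandem-pore leak channels (Kcnk) hold the resting potential, and channels opened by calcium or sodium (Kcnma1, Kcnn, Kcnt) follow activity. In interneurons of MGE origin, Kcnc1 and Kcnc2 are known for the rapid repolarisation that lets fast-spiking cells fire at high rates.

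The stretches upstream of 4 members are shown because the neighbours Kcnj10 and Kcnj9 differed in opposite directions, Kcnc2 was among the members that fell with the smallest p, and Kcnk5 was the member with the largest rise that passed the test. Each is the 250 bases before the transcription start in RefSeq (build GRCm38.p6), written 5′ to 3′ along the gene, and capitals mark GC boxes (GGGCGG on either strand). For Kcnc2, which has 4 listed starts, the first one whose first 30 transcribed bases occur in a GENCODE transcript was taken.
Kcnj10, chr1:172340960-172341209, plus strand: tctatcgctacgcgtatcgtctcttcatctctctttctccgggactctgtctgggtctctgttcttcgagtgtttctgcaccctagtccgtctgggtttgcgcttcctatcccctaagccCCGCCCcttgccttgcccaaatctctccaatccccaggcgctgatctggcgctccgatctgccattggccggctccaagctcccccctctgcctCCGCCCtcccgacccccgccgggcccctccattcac
Kcnj9, chr1:172329323-172329572, minus strand: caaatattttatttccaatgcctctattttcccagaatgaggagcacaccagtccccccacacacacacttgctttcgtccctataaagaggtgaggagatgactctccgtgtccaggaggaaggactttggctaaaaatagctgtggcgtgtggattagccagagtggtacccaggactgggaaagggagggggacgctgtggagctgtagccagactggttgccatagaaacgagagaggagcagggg
Kcnc2, chr10:112270871-112271120, plus strand: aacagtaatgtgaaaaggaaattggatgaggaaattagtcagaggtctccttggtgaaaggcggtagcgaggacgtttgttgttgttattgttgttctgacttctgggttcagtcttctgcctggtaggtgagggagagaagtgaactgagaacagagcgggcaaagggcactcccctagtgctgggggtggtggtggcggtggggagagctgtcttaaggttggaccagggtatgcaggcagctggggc
Kcnk5, chr14:20181783-20182032, minus strand: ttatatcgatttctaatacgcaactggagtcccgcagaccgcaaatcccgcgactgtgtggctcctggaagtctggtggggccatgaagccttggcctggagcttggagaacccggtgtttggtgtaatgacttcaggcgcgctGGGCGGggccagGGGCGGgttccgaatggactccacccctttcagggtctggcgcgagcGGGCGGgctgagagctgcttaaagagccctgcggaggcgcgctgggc

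In these windows Kcnj10 held 2 GC boxes and 17 CpG dinucleotides, and Kcnk5 held 3 GC boxes and 19 CpG dinucleotides. Kcnj9 and Kcnc2 each held 0 GC boxes and 5 CpG dinucleotides. Of these 4 genes, Kcnj9 alone had a TATA box (TATAAA on either strand), and Kcnc2 alone had the E-box CAGCTG, which reads the same on both strands. RefSeq windows were found by symbol for 69 of the 94 members, with 94 windows in all because some genes have several starts. A GC box was in 44.7% of the members' windows and in 32.7% of all 32851 windows. The E-box was in 23.4% of the members' windows and 13.0% of all windows, and TATAAA in 3.19% and 12.4%. A match is a run of letters in a window and not a measured binding site.

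Total counts ran from 36517047 to 55552298 in pools labelled KO and from 33188277 to 46301483 in WT pools. Values are CPM (counts-per-million, with library sizes adjusted by TMM factors), and levels compared between genes are RPKM, which is CPM per kilobase of merged GENCODE M21 exons. Prdm16 itself had 53.6, 51.3 and 45.8 CPM in pools labelled KO, against 55.7, 47.0 and 45.4 CPM in WT pools. A count per gene does not show which exons were lost, so it leaves the KO label unchecked. KO pool 1 stood apart from KO pools 2 and 3 on the second principal component (34.99, against -11.58 and -12.40), which held 16.1% of the variance. KO pool 1 also had 1.92 CPM of the inactive X transcript Xist, against 721 and 1423 CPM in KO pools 2 and 3. WT pools had 1019 to 1167 CPM of it, and the part of sex makeup in how KO pool 1 differed was not tested. The 9 MGE markers examined, among them Nkx2-1, Lhx6 and Gad1, each had at least 71.5 CPM in every library. In tissue RNA, fewer cells of a type and less RNA per cell cannot be told apart.

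Potassium channel transcripts were more often lower than higher in pools labelled KO. Of 94 members 73 had enough reads to be tested, and 26 of them fell, 3 rose and 44 did not pass an edgeR adjusted p of 0.05. Of all 18079 genes tested 20.2% were called. The falls were 35.6% of the tested members and 10.5% of all genes, and the rises were 4.11% of the tested members and 9.72% of all genes. The median log2 fold change was -0.43 over the 73 members and -0.00244 over all genes, and the estimate was below 0 in 61 of the 73 members and in 9117 of the 18079 genes. All 3 pools labelled KO lay below all 3 WT pools in 32 members (19.5% of all genes) and above them in 5 (20.3% of all genes). Among genes with a mean of at least 1 CPM, 25 of 60 members fell, against 11.7% of all 14582 such genes.

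Most of the falls were of moderate size. Of the 26 members that fell, 15 did so by at least 1.5-fold and 6 by at least 2-fold. Of all 1897 genes that fell, 823 did so by at least 1.5-fold and 364 by at least 2-fold. Falls of at least 2-fold were thus 23.1% of the members that fell and 19.2% of all genes that fell. Kcns2 lay far from the rest at a log2 fold change of -2.99, and the next was Kcnk9 at -1.17. The levels of all 94 members summed to 142 ± 7.16 RPKM in pools labelled KO and 175 ± 7.75 RPKM in WT pools (SD, n = 3 each). KO pool 1 had the highest sum of its group (150.1 RPKM, against 136 and 140 RPKM in KO pools 2 and 3), and the lowest WT sum was 167 RPKM.

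**Figure D1:**
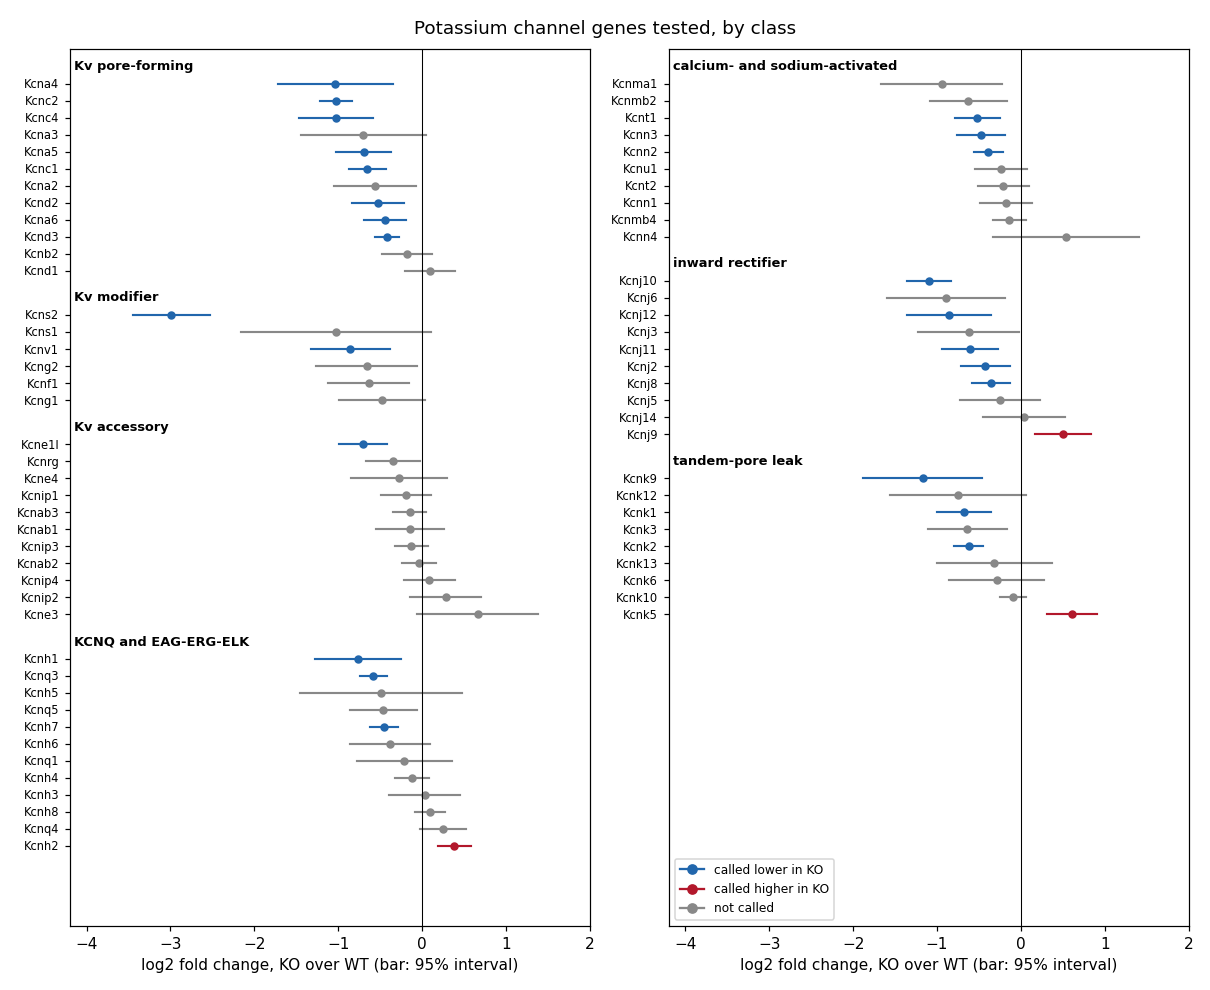
Log2 fold change (KO over WT) of 70 of the 73 tested members by class, with 95% intervals from the edgeR fit (n = 3 libraries per group); colour marks the call at an adjusted p of 0.05. Most points lie left of 0, Kcns2 is far to the left at -2.99, and the 3 members that rose are Kcnh2, Kcnj9 and Kcnk5.

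The number of calls depended on single libraries. KO pool 1 was the highest of its group, and so nearest to WT, in 21 of the 26 members that fell. It was also the highest in the 3 members that rose, and there it lay farthest from WT. KO pool 1 had the highest CPM of the 3 pools labelled KO in 55 of the 73 tested members (75.3%). The same held in 40.0% of all genes tested and in 75.0% of all genes that fell. It was the lowest of the 3 in 9 tested members and in 7376 of all 18079 genes. Without KO pool 1, 41 members fell and 4 rose, against 20.9% and 20.6% of all genes, and all 29 calls made with 6 libraries were kept. Without KO pool 2, 13 fell and 2 rose (4.17% and 3.12% of all genes), and without KO pool 3, 12 fell and 2 rose (4.31% and 3.31%). Leaving out a WT pool also gave fewer calls. Without WT pool 1, 21 fell and 2 rose (6.31% and 4.44%), and without WT pool 2, 14 fell and 1 rose (3.9% and 2.59%). Without WT pool 3, 12 fell and 1 rose (3.91% and 2.49%). In each of these 6 fits 12 members remained lower, among them Kcns2, Kcnc1, Kcnc2, Kcnc4, Kcnd3, Kcnq3, Kcnh7, Kcnn2, Kcnj10, Kcnk2 and Kcne1l, and Kcnh2 remained higher. The share of all genes that kept a call in all 6 fits is not given here, so these counts have no background beside them. The other 16 called members lost their call in at least 1 of these fits, and the libraries concerned are named beside them.

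**Figure D2:**
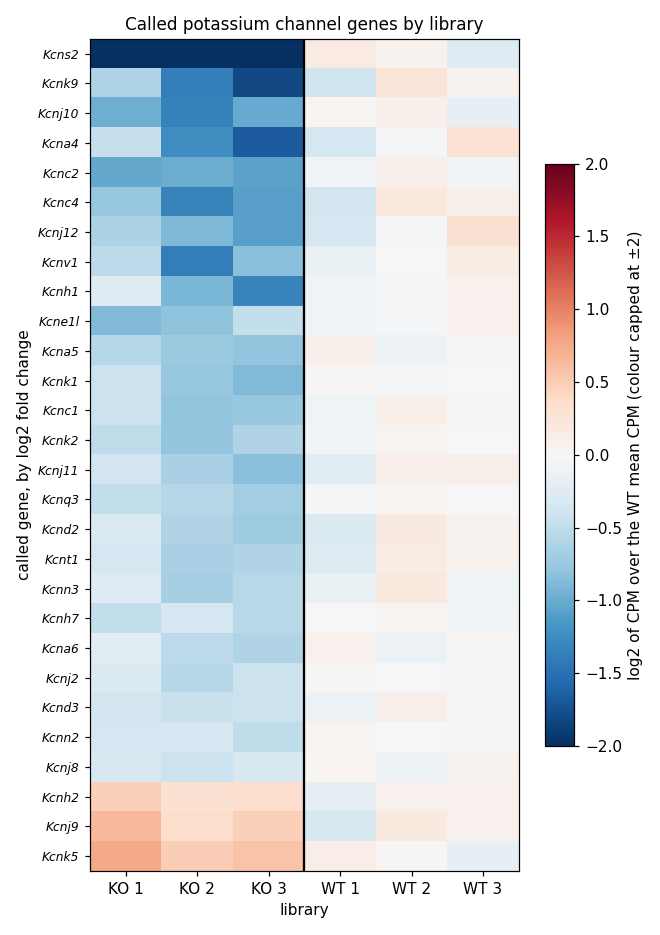
Log2 of CPM over the WT mean CPM for 28 of the 29 called members (rows, ordered by log2 fold change) in each library (columns); blue is below and red above the WT mean, with colour capped at ±2. All 3 KO libraries are below all WT libraries for the 25 genes in the upper rows, and KO 1 has the highest CPM of the KO libraries in 20 of them.

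Pore-forming subunits of the Kcna, Kcnb, Kcnc and Kcnd families were the class with the largest share of falls, with 9 of 14 tested members lower, 5 not passing and a median log2 fold change of -0.57. In the Kcnc family, whose channels open at strongly depolarised potentials and close fast, Kcnc1, Kcnc2 and Kcnc4 fell. Kcnc2 had 8.57, 8.75 and 8.28 CPM in pools labelled KO, against 16.7, 18.7 and 16.7 CPM in WT pools. Its pools were tight within each group, and the groups did not overlap (2.04-fold lower, log2 fold change -1.03, SE 0.09, edgeR adjusted p = 0.000128). Kcnc1 had 53.9, 41.8 and 42.8 CPM in pools labelled KO, against 68.6, 78.7 and 70.2 CPM in WT pools. KO pool 1 was the highest of its group and still below every WT pool (1.57-fold lower, edgeR adjusted p = 0.00316). Kcnc4 had 2.37, 1.59 and 1.90 CPM in pools labelled KO, against 3.10, 4.63 and 4.33 CPM in WT pools. It was expressed at a lower level than Kcnc1 per kilobase and was 2.04-fold lower, with no overlap (edgeR adjusted p = 0.00902).

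The Kcnd genes encode the channels of the somatodendritic A-type current, which delays firing. Kcnd3 had the highest level of the class, at 6.74 ± 0.207 RPKM in pools labelled KO and 8.98 ± 0.659 RPKM in WT pools. Its CPM was 66.8, 63.1 and 63.8 in pools labelled KO, against 79.4, 91.9 and 87.1 in WT pools, with no overlap (1.33-fold lower, edgeR adjusted p = 0.00352). Kcnd2 had 23.5, 18.9 and 17.7 CPM in pools labelled KO, against 23.5, 32.6 and 30.3 CPM in WT pools. KO pool 1 and WT pool 1 nearly met, and the call (1.44-fold lower, edgeR adjusted p = 0.0287) was lost without KO pool 2, KO pool 3, WT pool 2 or WT pool 3. The X-linked Kcnd1 did not pass (log2 fold change 0.10, 95% interval -0.20 to 0.39, edgeR adjusted p = 0.638).

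Kcnb2, which encodes a delayed rectifier, did not pass (log2 fold change -0.18, 95% interval -0.47 to 0.12). In the Kcna family, which includes axonal channels of low threshold, 3 of 5 tested genes fell. Kcna6 had 13.6, 11 and 10.4 CPM in pools labelled KO, against 16.7, 14.6 and 16.1 CPM in WT pools. Its groups did not overlap (1.35-fold lower, edgeR adjusted p = 0.0257), and of the 6 fits without 1 library only that without KO pool 1 kept the call. An antisense gene, Gm26673, covers 39.6% of the exonic bases of Kcna6 and had 0.198 CPM in pools labelled KO and 0.323 CPM in WT pools. The strand setting of the counts is unknown here, so reads of the pair cannot be told apart.

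Kcna5 had 1.83, 1.62 and 1.56 CPM in pools labelled KO, against 2.88, 2.48 and 2.74 CPM in WT pools (1.62-fold lower, edgeR adjusted p = 0.0127). Kcna4 had 1.08, 0.631 and 0.471 CPM in pools labelled KO, against 1.17, 1.46 and 1.82 CPM in WT pools (2.05-fold lower, edgeR adjusted p = 0.0417). In both genes every pool labelled KO lay below every WT pool. The call of Kcna5 was lost without KO pool 3 or WT pool 3, and that of Kcna4 was kept only without KO pool 1. Kcna3 had 8.66, 3.40 and 4.18 CPM in pools labelled KO, against 9.96, 8.09 and 8.34 CPM in WT pools. KO pool 1 lay among the WT pools and the gene did not pass (edgeR adjusted p = 0.156), while without KO pool 1 it was lower at a log2 fold change of -1.20 (edgeR adjusted p = 2.62e-05). Its neighbour Kcna2, 63.1 kb away on chromosome 3, likewise did not pass with 6 libraries (log2 fold change -0.56, edgeR adjusted p = 0.0954) and was lower without KO pool 1 (log2 fold change -0.91, edgeR adjusted p = 5.25e-05). Kcna5, Kcna1 and Kcna6 follow each other on chromosome 6 with no other protein-coding gene between them, and Kcna1 had 39 reads in all and was not tested.

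**Figure D3:**
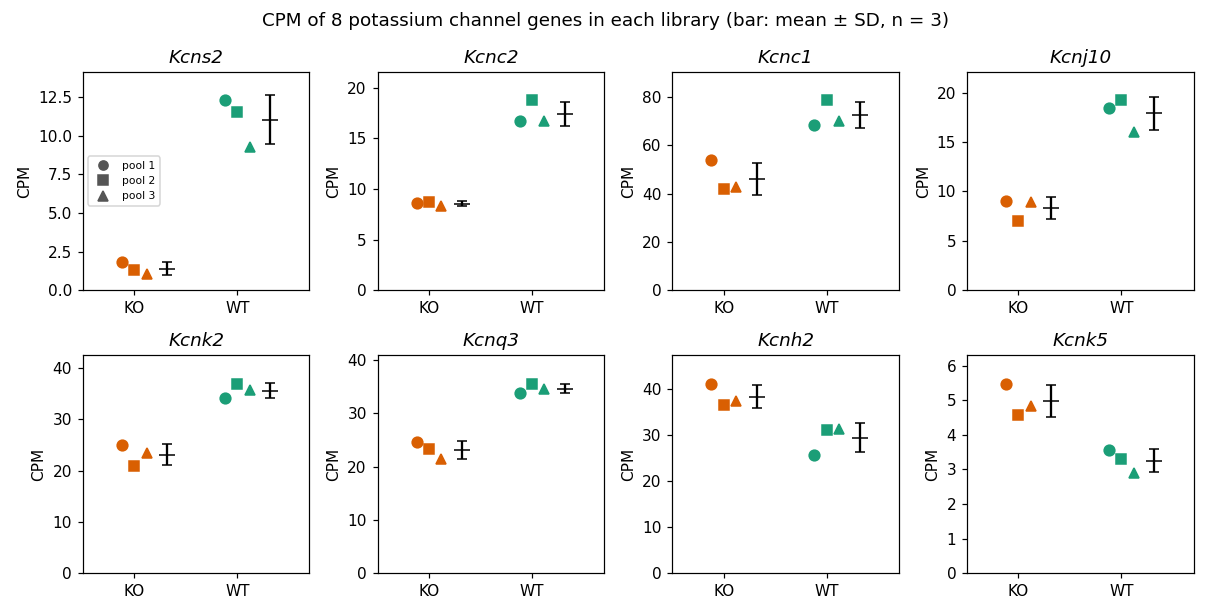
CPM of 8 called members in each library, with KO left of WT; symbols mark the pool number and bars the mean ± SD (n = 3). The groups are separate in all 8 panels, with KO below WT in 6 genes and above it in Kcnh2 and Kcnk5.

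Modifier subunits form no channel of their own and change the gating of the channels they join. Of 10 members 6 were tested, of which 2 fell and 4 did not pass, and the estimate was below 0 in all 6. Kcns2, whose product joins channels built from Kcnb subunits, had 1.85, 1.32 and 1.01 CPM in pools labelled KO, against 12.3, 11.5 and 9.25 CPM in WT pools. The groups were far apart compared with the spread within each, and the raw counts behind the pools labelled KO were 82, 48 and 56 reads, against 567, 386 and 355 reads in WT pools. The fall was 7.96-fold (log2 fold change -2.99, SE 0.21, 95% interval -3.45 to -2.53, edgeR adjusted p = 4.75e-05). Over the 6 fits without 1 library and the other alternatives its log2 fold change ran from -3.26 to -2.78. The gene lies at 34837355 to 34843407 on chromosome 15 (GRCm38). The level of Kcns2 per kilobase was 0.249 ± 0.0757 RPKM in pools labelled KO, against 1.97 ± 0.282 RPKM in WT pools.

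Kcnv1, another modifier subunit gene, had 1.69, 0.933 and 1.36 CPM in pools labelled KO, against 2.19, 2.42 and 2.68 CPM in WT pools (1.81-fold lower, edgeR adjusted p = 0.0222). Its groups did not overlap, and its call was lost without KO pool 2, KO pool 3, WT pool 2 or WT pool 3. Kcnf1 had the highest level of the class at 1.48 ± 0.300 RPKM in pools labelled KO and 2.31 ± 0.624 RPKM in WT pools. Its CPM was 8.57, 5.71 and 6.97 in pools labelled KO, against 7.69, 13.3 and 12.2 in WT pools. WT pool 1 lay within the range of the pools labelled KO, and the gene did not pass (log2 fold change -0.64, 95% interval -1.12 to -0.16, edgeR adjusted p = 0.0637). The other tested members, Kcng1, Kcng2 and Kcns1, did not pass either, at log2 fold changes from -1.03 to -0.48. In the fit without KO pool 1, Kcng1 (log2 fold change -0.73, edgeR adjusted p = 0.0107) and Kcns1 (-1.79, edgeR adjusted p = 0.0149) were lower. Kcns3, with too few reads to be tested with 6 libraries, was higher in that fit (log2 fold change 1.10, edgeR adjusted p = 0.0295).

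Accessory subunits were the class with the smallest share of falls, with 1 of 11 tested members lower and 10 not passing, at a median log2 fold change of -0.15. That share of 9.09% was near the 10.5% of all genes that fell. Kcne1l, an X-linked gene for a small membrane subunit, had 4.58, 4.83 and 6.03 CPM in pools labelled KO, against 8.02, 8.24 and 8.96 CPM in WT pools. Every pool labelled KO was below every WT pool (1.63-fold lower, edgeR adjusted p = 0.00674). KO pool 1 was lowest here, unlike in most members. Xist, which is made from the inactive X chromosome, had 1.92 CPM in KO pool 1, 721 CPM in KO pool 2 and 1423 CPM in KO pool 3, against 1019 to 1167 CPM in WT pools, and the part of sex makeup in the value of Kcne1l was not tested. The cytoplasmic beta subunit genes Kcnab1, Kcnab2 and Kcnab3 and the 4 genes for the calcium-binding Kcnip subunits of Kcnd channels did not pass, with log2 fold changes between -0.19 and 0.28. Kcnip3 had the highest level of the class in pools labelled KO, while Kcne1l was above it in WT pools. Kcnip3 had 17.3, 15.3 and 16.5 CPM in pools labelled KO, against 16.4, 19.4 and 17.9 CPM in WT pools, with overlapping groups. Kcnd2 and Kcnd3 thus fell in pools labelled KO, while the test of each Kcnip gene did not pass, the widest 95% interval among them being -0.14 to 0.71 for Kcnip2.

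In the Kcnq and Kcnh families 3 of 13 members fell, 1 rose and 9 did not pass. Kcnq3 encodes a subunit of the M-current, which restrains repetitive firing. Kcnq3 had 24.7, 23.3 and 21.4 CPM in pools labelled KO, against 33.8, 35.6 and 34.5 CPM in WT pools. It was 1.5-fold lower with no overlap (log2 fold change -0.58, 95% interval -0.74 to -0.42, edgeR adjusted p = 0.00102).

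Kcnh2, which encodes a channel of the ERG type known for its slow closing after an action potential, was 1 of the 3 members that rose. It had 41.1, 36.5 and 37.3 CPM in pools labelled KO, against 25.8, 31.1 and 31.3 CPM in WT pools. Every pool labelled KO lay above every WT pool (1.30-fold higher, log2 fold change 0.38, SE 0.09, edgeR adjusted p = 0.0183). Its relative Kcnh7, also of the ERG type, had 24.6, 27.5 and 23.6 CPM in pools labelled KO, against 34.5, 36.1 and 33.1 CPM in WT pools. It went the other way, 1.37-fold lower with no overlap (edgeR adjusted p = 0.00464). Exons of Gca on the other strand cover 4.57% of the exonic bases of Kcnh7. Gca had 10.6 CPM in pools labelled KO and 13.8 CPM in WT pools. As the strand setting is unknown, reads in the overlap cannot be told apart. Kcnh1, of the EAG type, had 7.71, 4.86 and 3.69 CPM in pools labelled KO, against 8.73, 9.04 and 9.80 CPM in WT pools (1.7-fold lower, edgeR adjusted p = 0.0449). Its groups did not overlap, but KO pool 1 was near WT, and the call was kept only in the fit without that pool. Kcnh4, of the ELK type and among the members with the highest levels, did not pass at 10.1 ± 1.25 RPKM in pools labelled KO and 11 ± 0.648 RPKM in WT pools (edgeR adjusted p = 0.371).

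Among channels opened by calcium or sodium, 3 of 10 tested members fell and 7 did not pass. The Kcnn genes encode calcium-activated channels of small conductance, which shape the pause after a spike. Kcnn2 had 17.8, 17.9 and 15.9 CPM in pools labelled KO, against 23.2, 22.3 and 21.9 CPM in WT pools. Its groups were tight and separate (1.31-fold lower, edgeR adjusted p = 0.00993). Kcnn3 had 11, 8.31 and 8.97 CPM in pools labelled KO, against 12, 14.9 and 12.4 CPM in WT pools (1.39-fold lower, edgeR adjusted p = 0.0308), and its call was kept only without KO pool 1. Kcnn1 had the highest level of the class, at 11.3 ± 2.36 RPKM in pools labelled KO and 12.8 ± 0.730 RPKM in WT pools. It had 39.9, 60.6 and 55.7 CPM in pools labelled KO, against 60.9, 60.2 and 54.8 CPM in WT pools. Here KO pool 1 was low, KO pools 2 and 3 lay at the WT level, and the gene did not pass (edgeR adjusted p = 0.391).

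Kcnt1, which encodes a sodium-activated channel, had 18.2, 14.7 and 15.2 CPM in pools labelled KO, against 19.4, 25.7 and 24.2 CPM in WT pools (1.43-fold lower, edgeR adjusted p = 0.0176). Its groups did not overlap, and the call was lost without KO pool 2, KO pool 3, WT pool 2 or WT pool 3. Kcnma1, the pore gene of the calcium-activated channel of large conductance, had 6.92, 2.61 and 3.57 CPM in pools labelled KO, against 7.56, 9.43 and 8.34 CPM in WT pools. Every pool labelled KO was below every WT pool, yet the gene did not pass (log2 fold change -0.94, SE 0.31, edgeR adjusted p = 0.0685). Without KO pool 1 its log2 fold change was -1.42 (edgeR adjusted p = 1.75e-05).

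Inward rectifier genes had 5 of 10 tested members lower, 1 higher and 4 not passing. The estimate was below 0 in 8 of the 10, and the median log2 fold change was -0.52. Kcnj10, which encodes the main inward rectifier of glia, had 9.07, 7.02 and 8.89 CPM in pools labelled KO, against 18.5, 19.2 and 16.0 CPM in WT pools. The groups were separate by a wide margin (2.14-fold lower, log2 fold change -1.10, SE 0.12, edgeR adjusted p = 0.000473). Kcnj9, which encodes a subunit of the rectifiers opened by G proteins, had 6.92, 5.65 and 6.16 CPM in pools labelled KO, against 3.55, 5.04 and 4.69 CPM in WT pools. All pools labelled KO lay above all WT pools (1.42-fold higher, edgeR adjusted p = 0.0427), and of the fits without 1 library only that without KO pool 1 kept the call. These genes lie on chromosome 1 (GRCm38), Kcnj9 at 172320501 to 172329318 on the minus strand and Kcnj10 at 172341210 to 172374085 on the plus strand. They are 11.9 kb apart with no other protein-coding gene between them, and the upstream sequences printed above both lie in that gap.

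Other G protein-gated subunit genes did not pass, with Kcnj3 at a log2 fold change of -0.62, Kcnj5 at -0.25 and Kcnj6 at -0.89. In the fit without KO pool 1, Kcnj3 (log2 fold change -0.94, edgeR adjusted p = 0.00564) and Kcnj6 (-1.27, edgeR adjusted p = 0.00356) were lower, and Kcnj5 was not called. Kcnj11, the pore gene of the channel closed by ATP in neurons, had 4.49, 3.70 and 3.28 CPM in pools labelled KO, against 5.03, 6.24 and 6.23 CPM in WT pools (1.52-fold lower, edgeR adjusted p = 0.0229). Kcnj12, a constitutively active rectifier gene, had 0.992, 0.823 and 0.724 CPM in pools labelled KO, against 1.21, 1.49 and 1.90 CPM in WT pools (1.81-fold lower, edgeR adjusted p = 0.0282). Both genes had separate groups and lost their call without KO pool 2, KO pool 3, WT pool 2 or WT pool 3. Kcnj2, of the same constitutively active kind, had 2.91, 2.39 and 2.63 CPM in pools labelled KO, against 3.62, 3.58 and 3.47 CPM in WT pools (1.34-fold lower, edgeR adjusted p = 0.0457). Kcnj8, which in brain is known from pericytes, had the highest level of the class in pools labelled KO, though not in WT pools, where Kcnj10 was above it. Kcnj8 had 6.16, 5.73 and 6.16 CPM in pools labelled KO, against 7.86, 7.13 and 8.05 CPM in WT pools (1.28-fold lower, edgeR adjusted p = 0.0373). For Kcnj2 and Kcnj8 the groups were also separate, and only the fit without KO pool 1 kept the call among those without 1 library.

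Tandem-pore leak channels had 3 of 9 tested members lower, 1 higher and 5 not passing. Kcnk2, which encodes a leak channel opened by stretch, warmth and lipids, had 25.0, 20.9 and 23.3 CPM in pools labelled KO, against 34.1, 37.0 and 35.6 CPM in WT pools. It had the highest level of the class, and its groups were separate (1.54-fold lower, log2 fold change -0.62, SE 0.08, edgeR adjusted p = 0.00115). An antisense gene, A430027H14Rik, at 2.22 CPM in pools labelled KO and 2.63 CPM in WT pools covers 12.2% of its exonic bases. Kcnk1 had 3.38, 2.69 and 2.46 CPM in pools labelled KO, against 4.64, 4.51 and 4.53 CPM in WT pools (1.61-fold lower, edgeR adjusted p = 0.0127), and its call was lost without KO pool 2, KO pool 3 or WT pool 3. Kcnk5, a leak channel gene of the pH-sensitive kind, had 5.48, 4.58 and 4.84 CPM in pools labelled KO, against 3.55, 3.31 and 2.89 CPM in WT pools. Its pools labelled KO were all above its WT pools (1.53-fold higher, log2 fold change 0.61, SE 0.13, edgeR adjusted p = 0.0145), with the call lost without WT pool 2 or WT pool 3. Kcnk9 was the only called member with a mean under 1 CPM (2.25-fold lower, edgeR adjusted p = 0.0304), and its call was lost without KO pool 2, KO pool 3, WT pool 2 or WT pool 3.

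**Figure D4:**
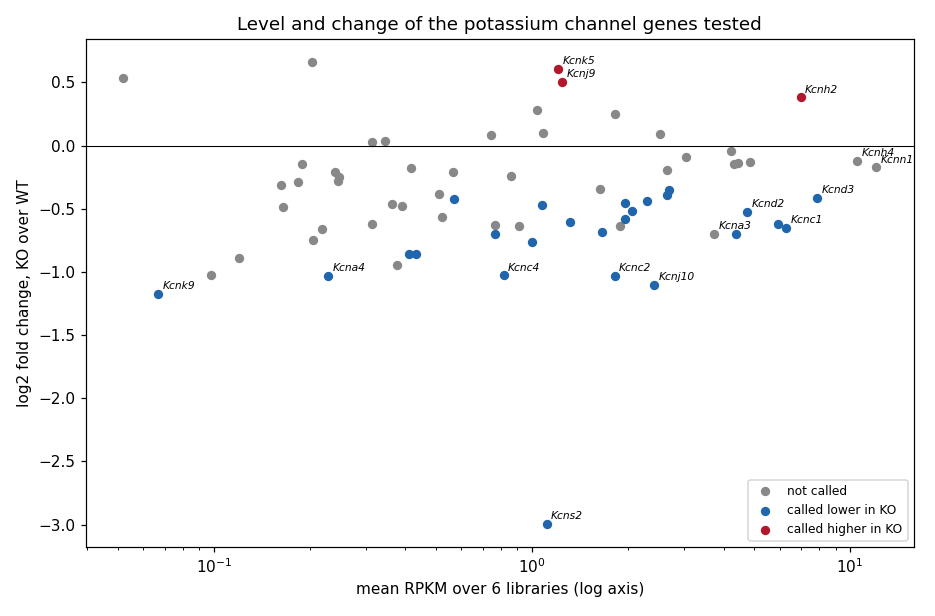
Mean RPKM over the 6 libraries (log axis) against log2 fold change (KO over WT) for 70 of the 73 tested members; colour marks the call. Kcnn1 and Kcnh4, far to the right, lie near 0 and were not called, while Kcns2 at -2.99 lies in the middle of the range of levels.

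In order of level, Kcnn1 ranked 2 and Kcnh4 ranked 3 in both groups. Kcnh2 ranked 4 in pools labelled KO and 7 in WT pools, where Kcnd3, Kcnc1 and Kcnk2 stood above it. In pools labelled KO the SD ranges of Kcnn1 and Kcnh4 met (11.3 ± 2.36 and 10.1 ± 1.25 RPKM), while in WT pools they did not meet (12.8 ± 0.730 and 11 ± 0.648 RPKM). Kcnj10 ranked 27 in pools labelled KO and 16 in WT pools, and Kcnc2 ranked 33 in pools labelled KO and 24 in WT pools. The 21 members that were not tested had at most a mean of 0.275 CPM, and Kcna10, Kcne1, Kcnj1 and Kcnk16 had no read in any library.

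Genes that work with potassium channels but have other symbols were read from the same fit. Of 21 such genes 17 were tested, of which 5 fell, 1 rose and 11 did not pass. Over all genes tested 10.5% fell and 9.72% rose. Dpp10, an auxiliary subunit gene of Kcnd channels, was 1.69-fold lower (9.57 ± 1.69 CPM in pools labelled KO and 16.3 ± 3.09 CPM in WT pools, edgeR adjusted p = 0.0128), while Dpp6, of the same kind, did not pass (edgeR adjusted p = 0.384). Amigo1, a partner of Kcnb channels, was 1.20-fold lower (edgeR adjusted p = 0.0300). Hcn2, 1 of 4 genes for channels of the hyperpolarisation-activated current, was 1.51-fold lower (edgeR adjusted p = 0.0170). Atp1b3, a sodium pump subunit gene, rose 1.20-fold (edgeR adjusted p = 0.0201). Without KO pool 2, KO pool 3, WT pool 2 and WT pool 3 in turn, the number of partners called was 1, 2, 1 and 1. The share of all genes called in these fits was 7.29%, 7.62%, 6.49% and 6.40%.

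Markers of cell types moved beside these genes, and their part in the results was not tested. The counts below stand beside 10.5% of all genes that fell and 9.72% that rose. Abcc9, which pairs with Kcnj8 in pericytes, was 1.45-fold lower (edgeR adjusted p = 0.0431), and 6 of 7 pericyte markers fell, each with every pool labelled KO below every WT pool. The 1 that did not pass lay above WT in every pool labelled KO and had the highest CPM of the 7. It had 109 to 141 CPM in pools labelled KO and 94.7 to 106 CPM in WT pools. With it, the whole list summed to 176 to 234 CPM in pools labelled KO and 211 to 218 CPM in WT pools. Of 9 radial glia markers 8 rose and 1, Slc1a3, fell (2633 to 3131 CPM in pools labelled KO and 1812 to 1920 CPM in WT pools). Kcnj10 and Slc1a3, both known from glia, were thus lower in pools labelled KO beside higher Nes, Vim and Sox9. Of 8 postmitotic neuron markers Dcx and Snap25 fell and 6 did not pass, with sums of 4465 to 4748 CPM in pools labelled KO and 4950 to 5140 CPM in WT pools. Of the 9 MGE markers 4 fell, 1 rose and 4 did not pass (3723 to 4198 CPM in pools labelled KO and 4306 to 4583 CPM in WT pools).

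Among 10 markers of the lateral and caudal eminences 6 fell and 1 rose (781 to 883 CPM in pools labelled KO and 835 to 960 CPM in WT pools). Among 8 cortical excitatory markers 4 rose (66.7 to 111 CPM in pools labelled KO and 27.5 to 60.9 CPM in WT pools). Of 7 endothelial markers 1 fell (143 to 172 CPM in pools labelled KO and 187 to 189 CPM in WT pools), and of 7 microglia markers 2 fell (27.6 to 33.2 CPM in pools labelled KO and 35.8 to 37.8 CPM in WT pools). Of 4 oligodendrocyte precursor markers 1 rose, 1 fell and 2 did not pass (179 to 221 CPM in pools labelled KO and 162 to 169 CPM in WT pools). The 1 that rose made up most of that sum, at 137 to 175 CPM in pools labelled KO and 113 to 121 CPM in WT pools. Of 6 choroid plexus markers 4 were tested, of which Otx2 rose and 3 did not pass. The list summed to 28.6 to 35.4 CPM in pools labelled KO and 12.2 to 14.5 CPM in WT pools. Nearly all of that was Otx2, at 27.1 to 33.9 CPM in pools labelled KO and 10.6 to 13.1 CPM in WT pools. The defining marker Ttr was at 0.0274 to 0.109 CPM in pools labelled KO and 0.0299 to 0.235 CPM in WT pools. Kcnj13 and Kcne2, which are known from choroid plexus, had 10 and 59 reads over all libraries and were not tested.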

How the data were processed

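Total RNA of pooled MGE tissue was sequenced in 6 libraries. The authors deposited a table of raw counts with a row per Ensembl gene. The tools named per the submitters' processing notes are STAR 2.5.2b, Trimmomatic 0.36, DESeq2, featureCounts and Subread 1.5.2, and the build is GRCm38. Which annotation release and strand setting the counting used is not stated. A normalized table was not used here, as 2 of its columns share 1 name.

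Groups came from the labels, which describe separate pools. Symbols, types and exonic lengths came from GENCODE M21 (49056 of 49315 IDs found, 259 not). The filter filterByExpr, with a count minimum of 10 and a total minimum of 15, left 18079 genes, and TMM factors were applied. KO and WT were compared with edgeR 4.0.16 (robust quasi-likelihood test, R 4.3.3), adjusted by Benjamini-Hochberg over all genes tested. Standard errors were derived as the absolute log2 fold change divided by the root of the F statistic. The procedure was tested on simulated data.

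The members, partner and marker lists were chosen with earlier results of these data known. Any member could be named; values in every library are given for called members whose mean reaches 1 CPM and for the member with the highest RPKM of each class. Kcna2, Kcna3, Kcnma1, the other members named without a call, and Xist were described after their values were seen. Alternatives were other scalings, filters, tests (DESeq2 1.42.0, limma 3.58.1 voom), thresholds, protein-coding genes only, the replicate number as a block, and each library left out. Some genes of these lists are counted in the totals but not reported here by name. The upstream sequences are from RefSeq (GRCm38.p6).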

Additional observations from a re-analysis of the deposited data

How the results depend on the processing

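Under the other scalings, filters and tests, with protein-coding genes only and without a robust spread, 25 to 29 members fell and 3 rose. The share of all genes that fell in these fits ran from 6.50% without a filter to 12.4% with the stricter filter. Of 463 pairs of a called member and an alternative, 380 kept direction and call, 83 lost the call and none reversed; 66 of the losses came with a library left out, 13 with the replicate block and 4 elsewhere (Kcnh1, Kcnj2 and Kcnj8 without a filter, and Kcnj2 in DESeq2). Leaving out 1 library, 12 to 41 members fell and 1 to 4 rose, 1 to 8 partners and 20 to 45 markers were called, and these fits hold fewer samples. The share of all genes called in them ran from 6.40% to 41.5%. With the replicate number as a block, 15 members fell, 1 rose and 2 partners were called, while over all genes 11.5% were called and 6.74% fell. The labels do not say that a number pairs pools, and the correlations of deviations between same-numbered pools were -0.0756, -0.123 and 0.0264. At an adjusted p of 0.01, by construction stricter, 12 members fell and 0 rose in edgeR (3 rose at an unadjusted p under 0.05, and 3 in DESeq2 at an adjusted p of 0.05), 1 partner and 20 markers were called. The share of all genes called at 0.01 is not given here. Replicates are pools, so the p-values set the difference between groups against the spread between pools, with 3 pools a group. In edgeR the spread of each gene is drawn toward that of other genes. Members with few reads, such as Kcns1, have wide intervals.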
